A study of Ovis aries with 40 samples.

Results

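Of the 15008 features of the sheep array, 59 were selected as named genes with a higher signal in Ujumqin longissimus dorsi muscle after birth than late in gestation. A feature is a 60-base probe. The members were selected on the deposited log2 values. A feature was eligible when its gene name differed from its systematic name and did not look like an accession, which left 1334. The mean at 135 d of gestation (U135) also had to lie within 1 log2 unit of the mean at 70 d (U70), which left 907. These were ranked on the lowest of the birth, 1 month and 2 month means minus the U135 mean, and the top 60 were taken. An exclusion by name of CYP1A1, IL6, cathelicidin, defensin, globin, immunoglobulin, MHC, ribosomal protein and collagen genes then removed CYP1A1 alone. The 59 members carry 47 gene names, and 12 genes are present as 2 features. The U70, U135, birth, 1 month and 2 month arrays chose the members, so differences among these groups are given as a description, with no test.

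Muscle came from 16 Texel fetuses (T70, T85, T100, T120 and T135, the number being the day of gestation), 15 Ujumqin fetuses (U70 to U135 on the same days) and 9 Ujumqin lambs taken at birth, 1 month and 2 months. Each group held 3 animals, except T100 with 4, and each animal had 1 array. Per the paper, the ewes of the fetuses were purebred, were synchronized for estrus and were inseminated with semen of their own breed. The paper does not describe the lambs or their dams. Texel is a heavily muscled mutton breed and Ujumqin a fat-tailed Mongolian breed. Fetuses were collected by caesarean section, from 3 ewes of each breed at a stage per the paper, and the labels do not tie a fetus to its ewe. The 4 T100 fetuses may therefore include litter mates. All U135 and 2 month animals were female, while the birth and 1 month groups each held 2 females and 1 male. All T120 fetuses were male and all U120 fetuses female. Lambs of Texel were not analysed here. The arrays lay on 5 slides. U135 and the 2 month group shared a slide with 2 T135 arrays, the birth group shared one with T70 and 2 T85 arrays, and the 1 month group shared one with 3 T100 arrays, 1 T120 array and 1 U100 array. Birth and 1 month therefore never shared a slide with U135. Median array signal was 234 to 708 over the 31 fetal arrays and 218 to 359 over the 9 postnatal arrays, between 79.3% and 90.9% of spots were well above background, and no spot was saturated. The muscle label held for MYLPF, a fast-fibre myosin light chain and the single fibre marker found on the array by name, whose signal was 417000 to 440000 at U135 and 359000 to 471000 after birth.

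Birth moves a lamb from placental glucose to fat-rich milk, from a sterile to a colonized surface and from restrained movement to standing and walking. Skeletal muscle then burns more fat, receives patterned nerve input and hosts more immune cells. Genes of calcium handling, of the immediate-early response to activity and of glucocorticoid action are known to be used in such muscle. Whole muscle was measured, so more cells of a type and more RNA per cell cannot be told apart.

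The probe sequences of the members on which most of the following results turn are shown first, 5′ to 3′ as deposited. Capitals mark the longest run that 2 features of the same gene share. NNOS, HOMER and C-FOS are each measured by probes shifted by a single base, so their 2 values are close to repeat readings of the same stretch. TLR7 probes share 20 bases. TERT is shown with a feature outside the selection that shares 58 bases with it. ME1 and HSP90AA1 have 1 feature each.
NNOS (1): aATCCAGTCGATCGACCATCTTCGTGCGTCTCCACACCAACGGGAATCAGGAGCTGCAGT
NNOS (2): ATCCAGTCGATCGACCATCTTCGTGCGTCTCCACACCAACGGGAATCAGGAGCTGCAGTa
HOMER (1): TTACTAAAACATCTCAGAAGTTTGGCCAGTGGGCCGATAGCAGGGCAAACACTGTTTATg
HOMER (2): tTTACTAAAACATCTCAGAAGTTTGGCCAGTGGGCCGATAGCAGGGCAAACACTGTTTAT
C-FOS (1): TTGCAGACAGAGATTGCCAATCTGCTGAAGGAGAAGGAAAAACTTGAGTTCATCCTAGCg
C-FOS (2): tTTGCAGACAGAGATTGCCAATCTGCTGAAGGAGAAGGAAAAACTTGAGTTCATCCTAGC
TLR7 (1): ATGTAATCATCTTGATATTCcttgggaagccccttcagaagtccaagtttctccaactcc
TLR7 (2): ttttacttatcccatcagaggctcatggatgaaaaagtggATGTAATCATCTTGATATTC
TERT (selected): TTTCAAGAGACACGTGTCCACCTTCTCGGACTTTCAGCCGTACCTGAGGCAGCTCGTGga
TERT (not selected): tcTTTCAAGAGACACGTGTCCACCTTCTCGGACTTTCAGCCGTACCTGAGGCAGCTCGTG
ME1: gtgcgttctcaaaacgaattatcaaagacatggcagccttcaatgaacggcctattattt
HSP90AA1: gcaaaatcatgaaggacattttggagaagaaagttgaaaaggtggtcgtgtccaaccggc
Of the 12 genes with 2 members, C-FOS, CD4, CPT1A, HOMER, NNOS, NPPC and XCL1 share 59 bases between them, CD154 shares 40 and GSTA1-1 shares 15. NOD2 and SP-A share no run above 5 bases, so their 2 features read different stretches. The probes of the members had a median GC content of 45.0%, against 43.3% over all features. The files map no probe to the genome, and 45 of the 59 members matched a RefSeq gene of the ARS-UI_Ramb_v3.0 annotation by accession or name. The strand read by probes of expressed sequence tags, such as those of GNLY and PTH-RP, was not established. Their gains may therefore not be those of the named coding transcript. In the text (1) is the higher ranked feature of a gene.

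Most members were already measured in the fetus. All 40 arrays were well above background for 33 of the 59 members, and 4 members, SELE, EAAT2 and CD4 (1) among them, were above it on 0 of the 31 fetal arrays. The 58 members above it on at least 1 array entered the tests. The set is therefore called higher after birth, not switched on. On quantile-normalized log2 signal the median member lay above U135 by 1.27 at birth, 1.25 at 1 month and 1.24 at 2 months, against medians over all tested features of -0.01 at birth and within 0.02 of 0 at the later stages. All 59 were above U135 at all 3 stages, which the selection fixes. With slide as a block in a fit over all 13 groups, a setting chosen for the gains after the data were seen, the median gain was 1.39 at birth, 1.48 at 1 month and 1.26 at 2 months, and 51, 54 and 58 of 58 members were above U135. Those not above it were both C-FOS features, CD154 (2) and PTH-RP at birth, EAAT2 at 1 month, and SP-A (2), SST1 and OENAC at both, with the lowest value at -1.46 for SP-A (2) at birth.

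For 41 members every postnatal array lay above every U135 array, as it did for 10.9% of all features. For 16 members every postnatal array lay above every one of the 31 fetal arrays of both breeds, as it did for 4.22% of all features. Within slides, 45 members at 2 months (17.2% of all features), 43 at 1 month (26.8%) and 37 at birth (26.2%) were above every fetal array on the same slide. The 2 month slide held the U135 arrays. The selection ranked postnatal means over U135, so all of these counts are descriptions, and an excess over all features follows in part from it. The lowest postnatal mean exceeded the highest of the 10 fetal group means for 46 members. The selection places it above U135 and keeps U70 near U135, so this count is a description. No share over all features is at hand for it. The other 13 had a fetal group at or above their lowest postnatal mean. They were both C-FOS and both NPPC features, TLR8, CD4 (2), NOD2 (2), SP-A (2), CD3E, SST1, EAAT1, OENAC and SERPINA14. NPPC (1), the precursor of C-type natriuretic peptide, averaged 9.73 at U120 and 8.69 at birth, its lowest postnatal mean.

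**Figure D1:**
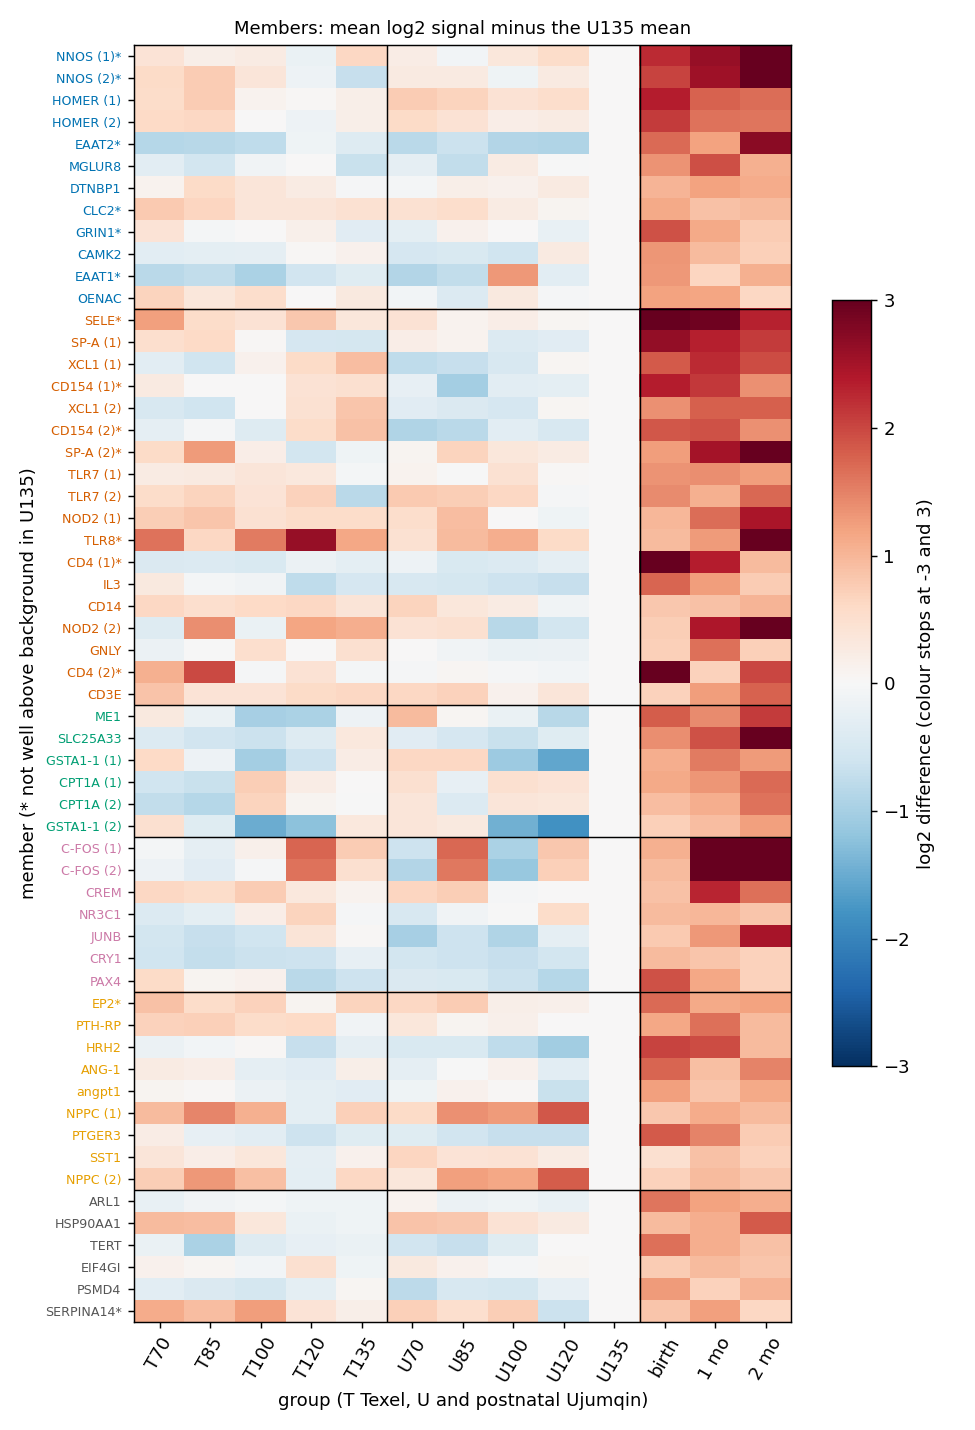
Mean log2 signal of each group minus the U135 mean for the 58 tested members, ordered by role (label colours) and, within a role, by rank. Columns are the 13 groups, colours stop at -3 and 3, and a star marks members not well above background on any U135 array. The 3 postnatal columns are red throughout, by selection, and the fetal columns of both breeds are mostly pale, with NPPC, TLR8, C-FOS and GSTA1-1 as visible exceptions.

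The median member had a log2 signal of 6.7 at U135, against 8.89 over all tested features, and 25 members lay under the 25th percentile of 6.16. Of the 20 highest ranked members, 8 were above background on no U135 array and 9 on all 40 arrays. Another background correction (normexp with an offset of 50, which compresses dim signals) kept all 59 members above U135 and lowered the median gain to 0.51 at birth and 0.59 at 1 and 2 months. Members seen on 3 of 3 U135 arrays (36) had a median lowest gain of 0.92, and of 0.58 after normexp. Members seen on 1 or 2 of them (7) had 0.89, and 0.13 after normexp. Members seen on none (16) had 1.04, and 0.09 after normexp. Where a member was above background on no U135 array, the fold is therefore given as at least a value, from signals without normexp. It sets the postnatal mean against the dimmest signal that was well above background on each U135 array, or the member's own signal where that was higher. The dimmest signal is that of any feature, and the limit of a given member can lie higher. TLR7 (2) was not well above background at 4.05 on a U135 array. The value is therefore no strict bound, and the postnatal mean can include arrays not above background.

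**Figure D2:**
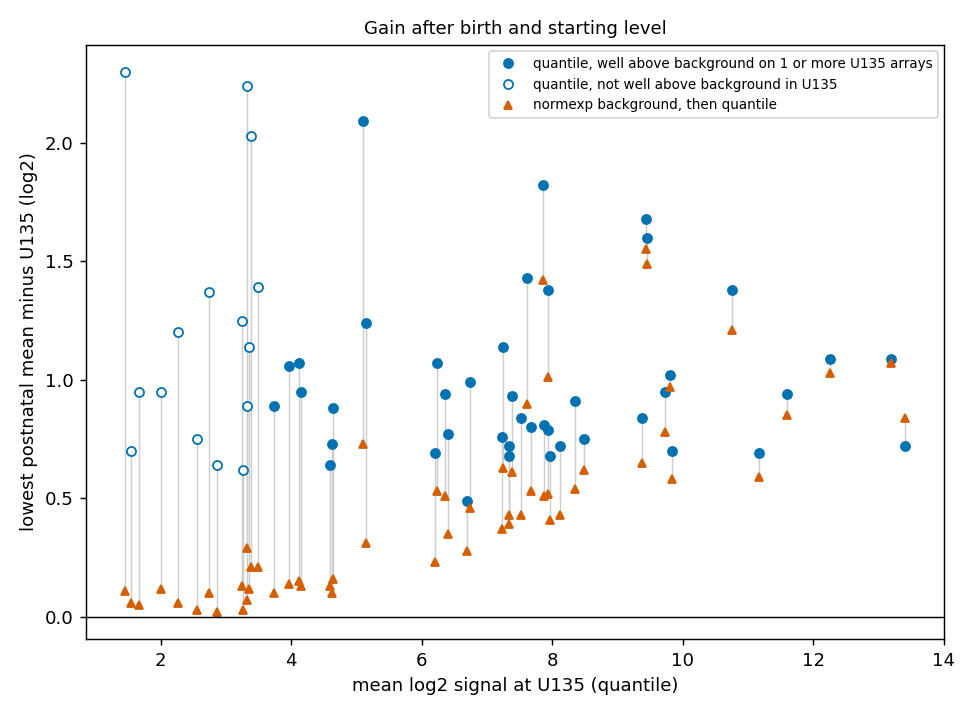
Lowest postnatal mean minus the U135 mean (log2, vertical axis) against the mean log2 signal at U135 (horizontal axis), 1 circle for each of the 58 tested members. Open circles are those not well above background at U135, and triangles are the same members after normexp. Triangles of members under about 5 lie close to 0, while those over 9 stay near their circles.

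Genes of synapses, calcium signalling and ion transport gave 12 members from 10 genes, and 7 of these members were highest at birth. NNOS, neuronal nitric oxide synthase, is held at the muscle membrane by the dystrophin complex. NNOS (1) had log2 signals of 3.75, 2.24 and 4.00 at U135, 5.33, 5.44 and 5.93 at birth, 5.99, 5.60 and 6.24 at 1 month, and 6.36, 6.89 and 6.83 at 2 months. The groups climbed without overlap from U135 to birth and from birth to 2 months, and 0 of 3 U135 arrays but all 9 postnatal arrays were above background. Its signal was at least 3.69-fold higher at birth, 4.8-fold at 1 month and 8.06-fold at 2 months than at U135. NNOS (2) read 3.58, 3.37 and 3.23 at U135, then 5.68, 5.02 and 5.56, then 6.08, 5.67 and 6.07, then 6.51, 6.84 and 7.01, or at least 4.0-fold, 5.73-fold and 10.3-fold higher, with 2 of 3 birth arrays above background. Over the other 28 fetal arrays NNOS (1) ranged from 2.62 to 4.96 with a median of 3.71, and 12 of the 28 were above background.

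HOMER, a scaffold that couples glutamate receptors and calcium channels to internal calcium stores, was bright on every array. HOMER (1) had signals of 9.69, 9.20 and 9.44 at U135, 11.94, 11.93 and 11.52 at birth, 11.23, 11.46 and 10.92 at 1 month, and 10.71, 11.11 and 11.55 at 2 months. Its mean was 2.36 above U135 at birth and 1.68 at 2 months, and the lowest postnatal array was above the highest of the other 28 fetal arrays (10.6, median 9.83). Birth and 2 months overlapped. HOMER (2) gave 2.1, 1.63 and 1.6 at the 3 stages, and after normexp HOMER (1) kept 2.22 at birth and 1.55 at 2 months. HOMER thus held the largest gain at birth among the members seen on all 40 arrays.

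Glutamate transporters and receptors were dim. EAAT2, which clears glutamate from synapses, had 3.78, 1.62 and 1.38 at U135, 8.71, 1.65 and 1.56 at birth, 3.92, 2.54 and 3.92 at 1 month, and 4.90, 5.03 and 4.94 at 2 months. A single birth array and a single 1 month array were above background, and 0 of 31 fetal arrays were. All 3 arrays of 2 months were, and their signal was at least 2.92-fold higher. EAAT1, a second transporter, and GRIN1, a subunit of the NMDA receptor, each overlapped U135 on 5 of 9 postnatal arrays. MGLUR8, a metabotropic receptor, had its highest mean at 1 month, 1.92 above U135, with 1 of 3 U135 arrays above background. Among the brighter members, CAMK2, a calcium-calmodulin kinase, was 1.32 above U135 at birth, 0.95 at 1 month and 0.72 at 2 months, and its 2 month arrays lay below its birth arrays. DTNBP1, which binds dystrobrevin, gained 1.02, 1.2 and 1.12. CLC2, a chloride channel seen on 0 of 3 U135 arrays, was at least 2.01-fold higher at birth, where 1 of 3 arrays was above background, and OENAC, the alpha subunit of the amiloride-sensitive sodium channel, gained 1.21 at birth and 0.64 at 2 months.

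**Figure D3:**
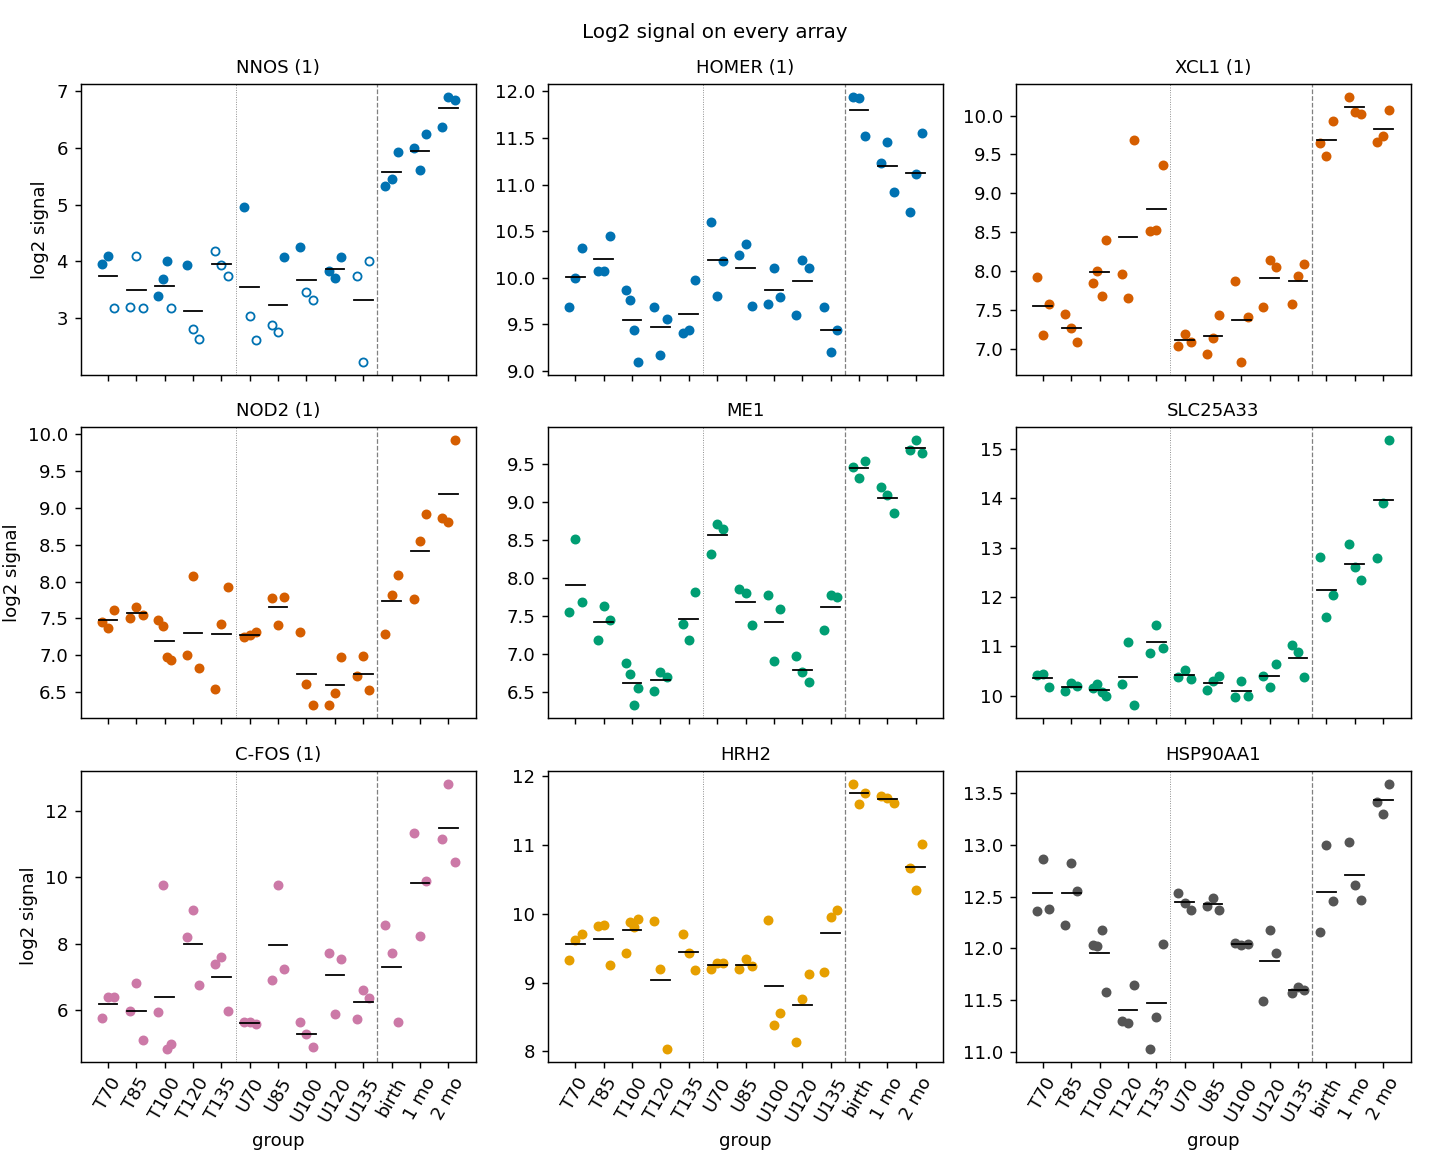
Log2 signal of 9 members on each of the 40 arrays, by group. Filled circles are well above background, open circles are not, and bars are group means. HOMER (1), XCL1 (1), ME1 and SLC25A33 stand above nearly all fetal arrays after birth, NNOS (1) rises out of the background, and C-FOS (1) varies widely within groups.

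Immune and adhesion genes were the largest group, with 18 members from 12 genes, of which 8 members were highest at 2 months and 6 at birth. SELE, the endothelial selectin that slows leukocytes, ranked first on the deposited values (2.27). Its signal was 1.47, 1.44 and 1.48 at U135, 5.64, 5.57 and 5.61 at birth, 4.31, 4.08 and 4.75 at 1 month, and 3.95, 4.19 and 3.16 at 2 months. All birth and 1 month arrays were above background, and no 2 month or fetal array was. The difference was at least 4.7-fold at birth and 2.01-fold at 1 month, and after normexp it was 0.41 at birth on the log2 scale. A further SELE feature outside the selection, which shares 20 bases, was above background on 0 of 40 arrays.

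SP-A, a collectin known from lung surfactant, was seen by features of different stretches. SP-A (1) read 4.84, 5.19 and 5.27 at U135, 7.52, 8.0 and 7.71 at birth, 6.53, 6.87 and 8.89 at 1 month, and 7.51, 6.59 and 7.48 at 2 months. Every postnatal array was above the highest of the other 28 fetal arrays (6.22), and the mean gain was 2.64 at birth and 2.09 at 2 months. SP-A (2) read 3.97, 2.98 and 2.78 at U135, 4.41, 4.37 and 4.69 at birth, 3.80, 5.35 and 8.07 at 1 month, and 6.87, 5.33 and 6.99 at 2 months. Both features were highest in the same 1 month lamb (replicate 3), and the second was at least 7.58-fold higher at 2 months and 2.02-fold at birth, where 2 of 3 arrays were above background.

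XCL1, a chemokine made by activated T and natural killer cells, was seen on all 40 arrays. XCL1 (1) had 7.57, 7.94 and 8.09 at U135, 9.65, 9.48 and 9.93 at birth, 10.24, 10.05 and 10.02 at 1 month, and 9.66, 9.73 and 10.07 at 2 months. XCL1 (2) had 7.66, 8.11 and 8.01, then 9.13, 9.32 and 9.46, then 9.98, 9.48 and 9.69, then 9.53, 9.67 and 9.97. The mean gains were 1.82, 2.24 and 1.96 for the first and 1.38, 1.79 and 1.8 for the second. The highest fetal value of XCL1 (1), 9.68 in T120 replicate 3, lay within the range of the lambs.

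CD154, the CD40 ligand of helper T cells, was dim. CD154 (1) read 3.63, 2.93 and 3.90 at U135, 6.03, 5.70 and 5.78 at birth, 5.56, 5.76 and 5.53 at 1 month, and 5.43, 4.79 and 4.39 at 2 months, or at least 4.66-fold, 4.0-fold and 2.39-fold higher, with 2 of 3 arrays above background at 2 months. CD154 (2) read 1.92, 3.12 and 3.17, then 4.49, 4.92 and 4.43, then 4.54, 4.82 and 4.62, then 4.43, 4.10 and 3.78. For both features the 2 month arrays lay below the birth arrays. CD4, the co-receptor of helper T cells, followed the same order in its first feature. It was at least 3.26-fold higher at birth and 1.98-fold at 1 month, where 2 of 3 arrays were above background, and 0 of 3 arrays of 2 months were. CD4 (2) was seen on 2 of 9 postnatal arrays. It was also above background in T85 replicate 2 (7.54) and T70 replicate 2 (4.95). CD4 (1), which shares 59 bases with it, read 1.61 and 1.57 on these arrays, so the 2 features disagreed there.

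TLR7, an endosomal sensor of single-stranded RNA, gained a similar amount at each stage. TLR7 (1) had 4.95, 5.19 and 5.31 at U135, 6.26, 6.75 and 6.48 at birth, 6.46, 6.47 and 6.68 at 1 month, and 6.85, 5.88 and 6.45 at 2 months, and the highest other fetal array was 5.8. TLR7 (2) had 4.05, 3.91 and 4.40, then 5.77, 5.96 and 4.87, then 5.14, 5.21 and 5.21, then 6.60, 5.00 and 5.92. Every postnatal array was above U135 for both features, but other fetal arrays reached 5.48 for TLR7 (2) and overlapped its lambs. TLR8, its close relative, was above background on 2 of 9 postnatal and 9 of 31 fetal arrays, and its T120 mean of 4.28 exceeded its birth mean of 2.62.

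NOD2, an intracellular sensor of bacterial cell wall, climbed with age in both of its unrelated features. NOD2 (1) had 6.72, 6.99 and 6.52 at U135, 7.29, 7.82 and 8.09 at birth, 7.76, 8.55 and 8.92 at 1 month, and 8.86, 8.81 and 9.92 at 2 months. NOD2 (2) had 4.35, 5.54 and 4.00, then 4.10, 5.98 and 5.98, then 5.97, 7.40 and 7.83, then 8.04, 7.87 and 9.19. The mean gains were 0.99, 1.67 and 2.45 for the first and 0.73, 2.44 and 3.74 for the second, and for both the 2 month arrays lay above the birth arrays. CD3E, the T cell receptor subunit, also gained most at 2 months (0.69, 1.24 and 1.76). CD14, the co-receptor for lipopolysaccharide, gained 0.8, 0.87 and 1.03. GNLY, named for a cytotoxic granule protein, gained 1.65 at 1 month and 0.72 at birth and 2 months on this feature. Its 2 most distant features were lower at birth (-2.21 and -1.87), and the feature that shares 30 bases was 0.61 higher. IL3, a myeloid growth factor, gained 1.74, 1.25 and 0.77.

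Leukocyte markers moved beside these genes. The summed signal of the 10 leukocyte markers on the array was 2840 to 3570 at U135, 3670 to 4170 at birth, 4400 to 5680 at 1 month and 5750 to 8150 at 2 months, with 8 to 10 of them above background, and CD3E, CD14 and CD4 are also members. Of the other 7, TYROBP and ITGAM were higher at birth, TYROBP and LYZ at 1 month, and LYZ (by 2.05), CD5 (1.88) and ITGB2 (1.3) at 2 months, while FCER1G and IL2RA passed no test. The markers did not rise together at birth, where CD5 differed by -0.76, FCER1G by -0.3, ITGB2 by 0.06 and LYZ by 0.07. CD3E, read in the sum by its feature outside the selection, differed by -0.96 at birth, and none of these differences was 2-fold. Endothelial markers (SELP, FLT1 and SELE) summed to 57.8 to 82.5 at U135, 95.1 to 333 at birth, 88.6 to 124 at 1 month and 107 to 312 at 2 months. SELE is also a member, so its rise in this sum is set by the selection. At birth SELP differed by -0.49 and FLT1 by 1.46, and neither passed in limma. SELP passed at 2 months (1.61) and FLT1 did not (0.81). The 3 erythroid markers, mostly HBB, summed to 92600 to 138000 at U135 and 665 to 2620 at 2 months, where HBB differed by -6.27, while EPOR was 1.06 higher at birth (limma adjusted p = 0.0033). The 4 fibroblast and matrix markers summed to 108000 to 122000 at U135 and 56400 to 73100 at birth. The 6 adipocyte markers were 7300 to 9360 at U135 and 8030 to 15500 at 2 months, and GFAP, the nerve and glia marker on the array, was 338 to 477 at U135 and 517 to 944 at birth. The part of these markers in the gains of the members was not tested. Birth and 1 month lay on other slides than U135, so marker differences at these stages cannot be told apart from slide.

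Metabolic and detoxifying genes gave 6 members from 4 genes, all seen on all 40 arrays, and 5 of the 6 were highest at 2 months. ME1, cytosolic malic enzyme, supplies NADPH for fat synthesis. It had 7.32, 7.78 and 7.75 at U135, 9.46, 9.32 and 9.54 at birth, 9.19, 9.09 and 8.86 at 1 month, and 9.68, 9.81 and 9.64 at 2 months. Its mean gain was 1.82, 1.43 and 2.09, and the lowest postnatal array was above the highest of the other 28 fetal arrays (8.71, a U70 fetus). SLC25A33, which carries pyrimidine nucleotides into mitochondria, had 11.03, 10.89 and 10.38 at U135, 12.80, 11.60 and 12.04 at birth, 13.08, 12.60 and 12.35 at 1 month, and 12.79, 13.90 and 15.17 at 2 months. The 3 lambs of 2 months differed by more than 2 log2 units, and all 9 lambs exceeded every fetal array (highest 11.43). The mean gain was 1.38, 1.91 and 3.19, and it was 3.04 at 2 months after normexp.

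CPT1A, the liver form of the enzyme that admits long-chain fatty acids to mitochondria, had 6.92, 8.11 and 6.72 at U135 in its first feature, 8.43, 8.58 and 8.16 at birth, 8.30, 8.43 and 8.96 at 1 month, and 8.84, 9.07 and 8.97 at 2 months. One U135 array was near the birth values, and the gain at 2 months was 1.71. CPT1A (2) read 6.77, 8.42 and 6.94, then 8.30, 8.57 and 8.06, then 8.18, 8.44 and 8.80, then 8.83, 9.12 and 9.06, and 3 of its 9 postnatal arrays did not exceed the highest U135 array. GSTA1-1, a glutathione transferase of a family with near-identical copies that the array may not separate, was among the brightest members. GSTA1-1 (1) had 12.74, 13.36 and 13.47 at U135, 14.18, 14.30 and 14.35 at birth, 15.10, 14.75 and 14.41 at 1 month, and 14.29, 14.71 and 14.37 at 2 months. GSTA1-1 (2) had 12.95, 13.66 and 13.63, then 14.04, 14.03 and 14.30, then 14.61, 14.24 and 14.18, then 14.37, 14.83 and 14.72. The gains were 1.09 to 1.57 for the first and 0.72 to 1.23 for the second, with no overlap with U135.

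Transcription factors and a clock gene gave 8 members from 7 genes. C-FOS, an immediate-early gene of the AP-1 complex that responds within minutes to contraction and stress, had the largest gain of all members, 5.24 at 2 months. C-FOS (1) read 5.72, 6.61 and 6.36 at U135, 8.55, 7.73 and 5.63 at birth, 11.33, 8.23 and 9.87 at 1 month, and 11.14, 12.81 and 10.47 at 2 months. One lamb at birth was below U135, and one fetus among the other 28 reached 9.75, so the birth and 1 month groups overlapped fetal arrays. C-FOS (2), shifted by a single base, gained 0.94, 3.5 and 5.15. JUNB, its AP-1 partner, gained 0.79, 1.29 and 2.47, and 2 months was above birth without overlap. CREM, a factor of the cyclic AMP response, gained most at 1 month (2.29). NR3C1, the glucocorticoid receptor, gained 0.96, 1.0 and 0.84, and CRY1, a repressor of the circadian clock, 0.96, 0.84 and 0.7. PAX4, a factor of pancreatic islets, gained 1.9 at birth and 0.68 at 2 months.

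Hormone and prostaglandin signals gave 9 members under 8 gene names, none of them highest at 2 months. EP2, a receptor of prostaglandin E2, had 3.27, 3.73 and 3.06 at U135, 5.06, 4.79 and 5.26 at birth, 5.28, 4.14 and 4.04 at 1 month, and 4.55, 3.97 and 5.13 at 2 months, or at least 2.87-fold, 1.96-fold and 2.05-fold higher, with 2 of 3 arrays above background at each stage. Its fetal values reached 4.35 and were above background on 20 of the other 28 arrays. PTGER3, a second receptor of the same ligand, gained 1.84 at birth, 1.48 at 1 month and 0.75 at 2 months. HRH2, a histamine receptor, had the largest gain of this group, 2.03 at birth and 1.95 at 1 month, and 0.95 at 2 months, and after normexp it kept 1.81 at birth. With slide as a block in a fit over all 13 groups its gain was 0.13 at birth and 0.19 at 1 month. For PTGER3 and HRH2 the 2 month arrays lay below the birth arrays. PTH-RP, a regulator of growth cartilage, gained 1.15, 1.66 and 0.95. Angiopoietin 1, which stabilizes vessels, was present under 2 of these names, on features drawn from different source sequences. ANG-1 gained 1.75, 0.91 and 1.49, and angpt1 1.22, 0.84 and 1.14. NPPC gained 0.81 to 1.11 in its first feature and 0.68 to 0.95 in its second. SST1, a somatostatin receptor, gained least of all at birth (0.49, over 2 arrays because the spot of 1 array was marked as an outlier).

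Protein and chromosome upkeep gave 6 members from 6 genes. ARL1, a small GTPase of the Golgi, had 12.29, 12.09 and 12.36 at U135, 13.43, 14.04 and 14.08 at birth, 13.31, 13.58 and 13.45 at 1 month, and 13.30, 13.36 and 13.35 at 2 months. All 9 lambs exceeded all 31 fetuses, whose highest value was 12.53, and the gain was 1.6, 1.2 and 1.09. HSP90AA1, an inducible chaperone, had 11.57, 11.63 and 11.60 at U135, 12.16, 13 and 12.46 at birth, 13.03, 12.61 and 12.47 at 1 month, and 13.41, 13.30 and 13.59 at 2 months. Its gain was 0.94 at birth and 1.84 at 2 months, and fetuses of earlier stages reached 12.86. PSMD4, a proteasome subunit, gained 1.27, 0.69 and 1.02, and EIF4GI, a translation initiation factor, 0.76, 0.96 and 0.84. TERT, the catalytic subunit of telomerase, gained 1.66 at birth and 0.89 at 2 months. SERPINA14, a serpin known from the pregnant uterus, was seen on 3 of 9 postnatal arrays and 0 of 3 U135 arrays.

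**Figure D4:**
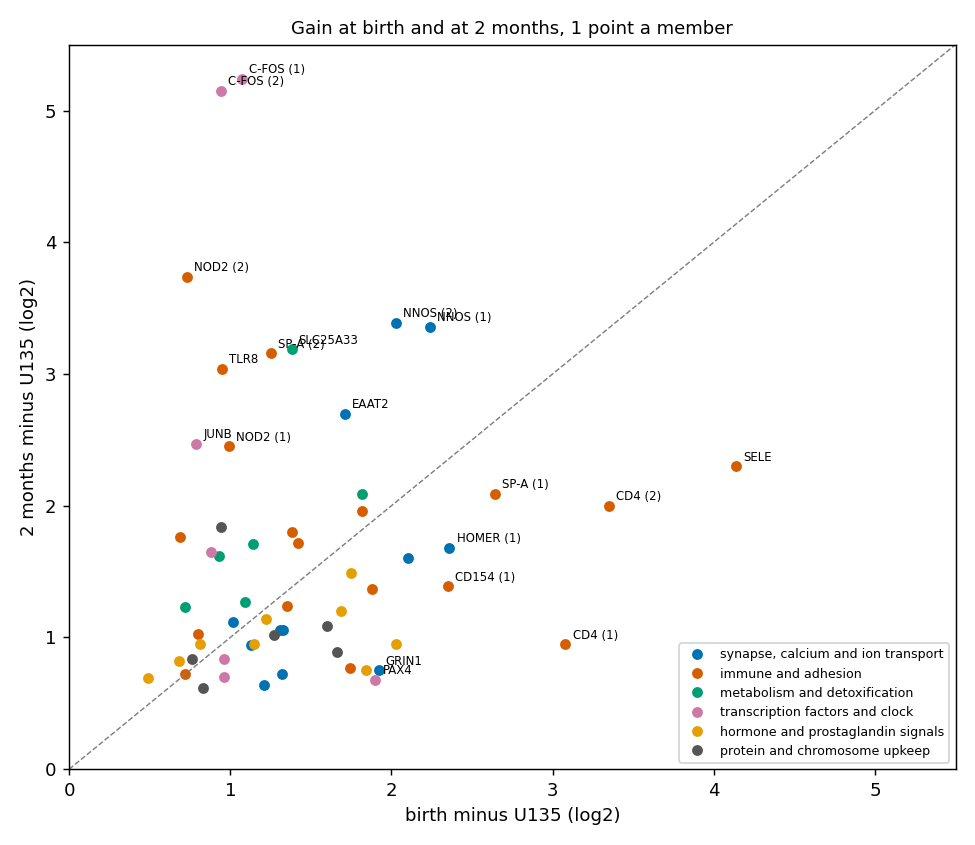
Gain over U135 at 2 months (vertical) against the gain at birth (horizontal), both in log2, 1 point for each of the 58 tested members, coloured by role. The dashed line marks equal gains. C-FOS, NOD2 (2), TLR8 and SLC25A33 lie far above it and SELE, both CD4 features and GRIN1 below it.

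The mean was highest at birth for 24, at 1 month for 15 and at 2 months for 20. The 2 month arrays were all above the birth arrays for 14 members (21.1% of all features) and all below them for 14 (23.4%), and the groups overlapped for 31. These shares of the members are near those of all features. Those higher at 2 months were both features of NNOS, NOD2, C-FOS and CPT1A, SP-A (2), XCL1 (2), ME1, GSTA1-1 (2), HSP90AA1 and JUNB. Those lower at 2 months were SELE, both CD154 and both CD4 features, SP-A (1), HRH2, PTGER3, PAX4, CAMK2, IL3, ARL1, TERT and GRIN1. The birth and 2 month arrays lay on different slides, so these courses cannot be told apart from slide.

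Features outside the selection that carry the same gene names did not always follow. Of the 24, 13 share at least 58 bases with a member. The TERT feature shown above with 58 shared bases changed by -3.14 at birth, -1.61 at 1 month and -2.97 at 2 months, against 1.66, 1.09 and 0.89 for the member. EAAT2 changed by 0.01, 1.62 and 3 on a feature with 58 shared bases that was above background on 3 of 40 arrays. CREM, on 2 features of other stretches, changed by 0.12 and 0.19 at birth and by 1.46 and 1.47 at 2 months, and CD3E by -0.96, 1.25 and 2.1. GNLY on its 2 most distant features changed by -2.21 and -1.87 at birth and by 2.38 and 2.39 at 2 months. JUNB (0.37, 1.41 and 2.64), PSMD4, PTGER3, CD14, SST1 and OENAC changed upwards at all 3 stages on their other feature too. HRH2 changed less on its other feature (1.16, 0.36 and 0), and CRY1 changed by 0.08, 0.46 and 1.32. EAAT1 changed by -0.06 at birth, and GRIN1 by -0.22 at 1 month on a feature with 59 shared bases.

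Texel fetuses were not used in the selection, so the change across Texel gestation could be tested. The selection held U70 and U135, the same days in Ujumqin, within 1 log2 unit, so low counts of change can carry over from it. In limma, an empirical Bayes linear model, 2 of 58 members were higher at T135 than at T70 with an adjusted p under 0.05 and a 2-fold change, against 10.3% of all features, and 2 were lower, against 11%. For 49 of the 59 members the means differed by less than 1 log2 unit, with no share over all features at hand. The differences ran from -1.35 to 1.46 with a median of -0.22 (-0.05 over all features). The groups did not overlap for 15 members, as for 49.3% of all features. Both features that rose were XCL1. XCL1 (1) read 7.92, 7.17 and 7.57 at T70 and 8.51, 8.52 and 9.36 at T135, a difference of 1.24 (SE 0.43, adjusted p = 0.0343), and XCL1 (2) read 7.53, 7.40 and 7.41 and then 8.29, 8.63 and 9.38 (1.32, SE 0.38, adjusted p = 0.0141). T135 was above T70 without overlap in both. The leukocyte markers summed to 4010 to 5600 at T70 and 2990 to 9430 at T135, and their part in the difference was not tested. Without T135 replicate 3 the XCL1 differences were 0.96 and 1.01 and neither passed, and XCL1 (1) also lost its call without T70 replicate 2 or 3. HSP90AA1 went from 12.36, 12.86 and 12.38 to 11.03, 11.34 and 12.04 (-1.07, SE 0.26, adjusted p = 0.00555), so it fell across Texel gestation. SP-A (1) went from 5.87, 5.27 and 5.69 to 4.08, 5.14 and 4.48 (-1.04, SE 0.33, adjusted p = 0.0238). HSP90AA1 did not reach 2-fold without T70 replicate 2 or T135 replicate 1, and SP-A (1) lost its call without T70 replicate 1 or 3 or T135 replicate 1 or 3. With slide as a block in a fit over all 13 groups, none of these 4 passed, with differences of -1.51 for HSP90AA1, 1.06 for XCL1 (1), 0.29 for XCL1 (2) and -0.24 for SP-A (1).

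**Figure D5:**
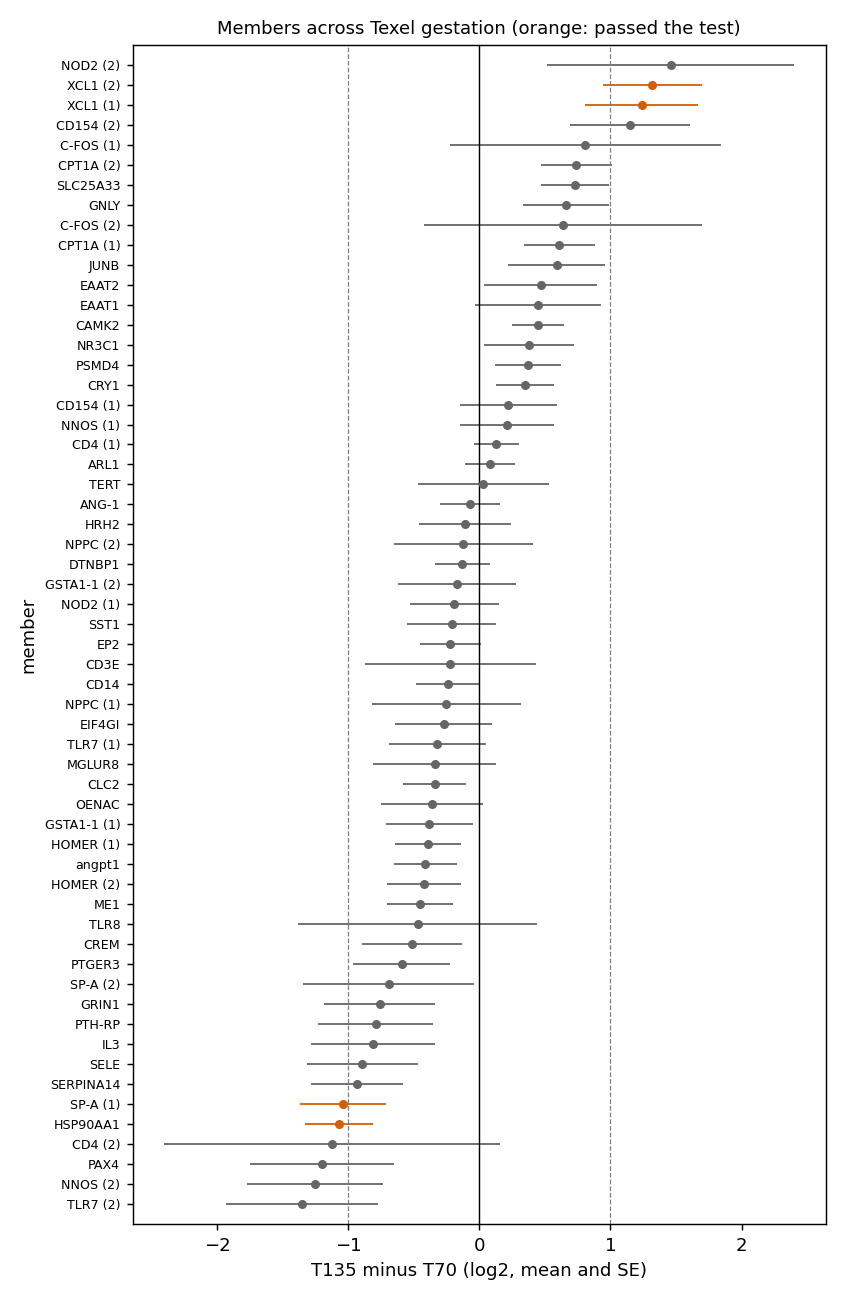
T135 minus T70 (log2, horizontal axis) with its standard error from limma for the 58 tested members, sorted. Dashed lines mark 2-fold changes, and orange members passed an adjusted p of 0.05 and 2-fold. Most members lie between the dashed lines, with XCL1 to the right and SP-A (1) and HSP90AA1 to the left.

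Any difference among the 5 Texel stages, by limma's F test, was found for 10 of 58 members, against 38.4% of all features. The selection limit of 1 log2 unit between U70 and U135 bears on this count too. All 6 metabolic members were among them, with HSP90AA1, SP-A (1) and both XCL1 features. CPT1A (2) had a mean of 6.53 at T85 and 8.05 at T100 (adjusted p = 0.00146 over the stages), and CPT1A (1) spanned 1.4 between its lowest and highest stage mean (adjusted p = 0.00265). ME1 spanned 1.29, with 7.55, 8.51 and 7.68 at T70, 6.88, 6.74, 6.33 and 6.55 at T100, and 7.39, 7.18 and 7.82 at T135 (adjusted p = 0.00251). Its signal was lowest in mid gestation, and that of GSTA1-1 likewise. GSTA1-1 (1) read 14.02, 13.22 and 14.14 at T70, 12.54, 12.35, 11.60 and 12.24 at T100, and 13.40, 12.98 and 13.86 at T135 (adjusted p = 0.00631), and GSTA1-1 (2) spanned 1.99 (adjusted p = 0.00522). SLC25A33 was 10.43, 10.44 and 10.18 at T70 and 10.86, 11.43 and 10.96 at T135 (adjusted p = 0.0361 over the stages). With slide as a block, 1 of 58 members passed.

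In Ujumqin fetuses at 85, 100 and 120 d, which the selection did not use either, 0 of 58 members were higher at U120 than at U85 in limma, also at an unadjusted p under 0.05 with 2-fold (4.34% of all features at the adjusted threshold), and 3 were lower (3.63%). GSTA1-1 (1) fell from 14.07, 14.17 and 13.24 at U85 to 12.06, 11.51 and 11.29 at U120, by 2.20 (SE 0.33, adjusted p = 0.00318). GSTA1-1 (2) fell from 14.06, 13.86 and 13.20 to 11.76, 11.50 and 11.52, by 2.11 (SE 0.23, adjusted p = 0.000927). In lambs both read at least 14.03. NOD2 (1) went from 7.77, 7.41 and 7.79 to 6.32, 6.49 and 6.98, and fell by 1.06 (SE 0.27, adjusted p = 0.0292), and without any 1 of 5 of the 6 arrays its adjusted p lay between 0.0501 and 0.0912. U85 and U120 did not overlap for 16 members, as for 40.4% of all features. Both stages lie between U70 and U135, which the selection held within 1 log2 unit, so low counts of change can carry over from it. U85 lay on 1 slide and U120 on another, and with slide as a block none of the 3 passed, with differences of -1.71 and -1.43 for GSTA1-1 and -0.48 for NOD2 (1).

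No member differed between the breeds in limma with an adjusted p under 0.05 and 2-fold. That was 0 of 58 at 85 d (0.0207% of all features), at 100 d (0.0138%) and at 120 d (0.0345%). At an unadjusted p under 0.05 with 2-fold, 2 members differed at 85 d (2.01% of all features), 1 at 100 d (1.41%) and 5 at 120 d (3.85%), and the methods' t-test with the same limits gave 1 (0.919%), 0 (0.732%) and 2 (1.16%). At the methods' own false discovery limit of 0.4 the t-test gave 0 at each stage. In a fit over all 13 groups 2 members passed at 120 d, and 3 did with slide as a block. NPPC was the largest, 2.15 lower in Texel at 120 d in its first feature (log2 difference -2.15, SE 0.4, adjusted p = 0.365), where all Texel fetuses were male and all Ujumqin fetuses female. The paper lists this feature among its genes lower in Texel at 120 d, so its own run of the t-test did call it. The change from 85 to 120 d differed between breeds for 0 of 58 members (0.0207% of all features), and for 7 at an unadjusted p under 0.05 (15% of all features). For GSTA1-1 (1) the Texel change minus the Ujumqin change was 1.74 (SE 0.47, adjusted p = 0.127).

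Other genes of the same pathways, from lists drawn up by function, were tested between U135 and each postnatal stage. Birth and 1 month lay on other slides than U135, so differences at these stages cannot be told apart from slide. The 2 month group shared the slide of U135. Over all 14480 tested features 9.8%, 8.02% and 6.46% were higher and 8.67%, 5.76% and 7.36% lower at birth, 1 month and 2 months. Of 6 fatty acid oxidation genes that are no members, UCP3, a mitochondrial carrier induced by fatty acids, was higher at birth by 4.09, at 1 month by 3.35 and at 2 months by 4.31 (SE 0.47 each, adjusted p = 0.000213, 0.000941 and 0.000349), and LPL, which frees fatty acids from lipoproteins, at 2 months by 1.11. Of 3 genes of the glucocorticoid and catabolic response, FBXO32, a ubiquitin ligase of muscle wasting, was higher by 1.96, 2.08 and 3.36, while HSD11B1 and NFKBIA did not pass. Of 11 genes of the growth hormone and IGF axis, 1 was higher and 1 lower at birth and at 1 month, and 3 were lower at 2 months. GHRHR was 1.44 higher at birth, and IGF2, the fetal growth factor, was 2.25 lower at 2 months (log2 difference -2.25, adjusted p = 0.000358). Of 22 cytokines and receptors, 3, 2 and 3 were higher and 1 lower at each stage, with IL8 3.5 higher and MIF at -1.15 at 2 months. Of 13 innate immunity genes, 4 were lower at birth (C3 at -2.4), 2 at 1 month and 1 at 2 months (NOS2 at -3.51), and 0, 1 and 2 were higher, with SLC11A1 at 2.24 and LYZ at 2.05 at 2 months. Of 5 interferon-stimulated genes, IRF1 alone passed, at 2 months (1.25). PYGM, muscle glycogen phosphorylase, was higher by 1.61, 1.38 and 1.43 and LDHA did not pass. COX5A, the oxidative phosphorylation gene found, and 4 clock genes (BHLHE40, CLOCK, DBP and PER2) passed at no stage in limma, and their differences ran up to 1.5 for BHLHE40 at 2 months (adjusted p = 0.0997).

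Across the 8 Ujumqin stage means, the named features outside the selection most like the mean of the members were CTSB, a lysosomal protease (Pearson r = 0.961), ERBA BETA1, a thyroid hormone receptor (0.951), and FBXO32 (0.949). The stages share their normalization, and these values are a description. CTSB was 10.03 at U135 and 10.8 at 2 months, and ERBA BETA1 8.39 and 10.95. At the rank limit members just inside included OENAC and SERPINA14, with deposited gains of 0.64 and 0.63, and the first features outside were GLRX2, PSMD4 (a second feature) and ERB, with 0.62, 0.61 and 0.61.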

How the data were processed

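Total RNA of each muscle was labelled with Cy3 and hybridised to 1 single-colour Agilent sheep array. Spot intensity values were deposited as scanner output, which per the file headers the authors made with Agilent Feature Extraction 10.5 with local background subtraction and spatial detrending; the version is from the submitters' processing notes. The deposited log2 table was quantile-normalized by the authors over 40 arrays. It was used for the selection of members and as an alternative. For all other values, spots marked as outliers were removed, spots of a feature were averaged, and arrays were quantile-normalized and log2 was taken after raising signals under 1 to that floor. Features well above background on at least 1 array (14480) were tested with limma 3.58.1 in R 4.3.3 with Benjamini-Hochberg adjustment over all of them, at an adjusted p under 0.05 and 2-fold (no fold for the F test and the interaction). Stage tests used the 5 Texel groups or the 3 Ujumqin groups of 85 to 120 d, breed tests the 2 groups of a stage, and pathway genes U135 with the postnatal groups. In a list, a gene was read by its brightest feature. The steps were tested on simulated data. Figures were drawn with matplotlib 3.10.9.

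Members, roles and lists were chosen with earlier results of these data known. Tested members are named, and 1 member is not reported here by name. Values on every array of U135 and after birth are given for the 20 highest ranked, and for members called in a test the arrays or the means of the groups tested are added. The pathway genes named are the largest changes of a list. Each replicate is 1 animal, so p-values measure the spread between animals of a group, and possible litter mates at T100 were treated as separate animals. Each value rests on 3 or 4 arrays, and this number limits the precision. Alternatives were the 75th percentile, the fetal arrays alone, the deposited table, normexp, other filters and floors, no fold threshold, an intensity trend, all 13 groups in 1 fit, slide and replicate blocks, each array left out and the methods' t-test. Promoter sequences were not used here.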

Additional observations from a re-analysis of the deposited data

Results flagged for a closer look

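T100, the single group of 4 animals, was the only group in which an outlying array was looked for. Dixon's ratio was used, the gap to the nearest array over the range of the group. Of 59 members, 4 exceeded the 95% limit, and chance marks about 1 group in 20. NOD2 (2) had 2.92 on one array and 4.83, 4.96 and 5.02 on the others (ratio 0.907), with 3 of 4 arrays above background. TERT had 3.23, 3.23, 3.29 and 3.67 (0.87), with 4 of 4 above background. CD154 (2) had 1.94, 2.08, 2.15 and 3.25 (0.842), with 1 of 4 above background. CPT1A (1) had 7.89, 7.94, 7.94 and 8.18 (0.82902, just over the limit). No change from 85 to 120 d differed between the breeds after adjustment.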

How the results depend on the processing

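Of the 59 members, 58 met the selection on quantile-normalized scanner values, 46 at the 75th percentile, 59 with exclusions made first and 35 with a flat window of 0.5. The 75th percentile moved the median of all features by 0.22 at birth, 0.16 at 1 month and 0.05 at 2 months, and the median gains there were 1.67, 1.62 and 1.32.

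For T135 over T70, 2 members were higher, against 1 with the 75th percentile, 0 with normexp, 4 with no fold threshold and 0 with slide as a block. Of those lower, 2 became 7, 0 with normexp, 5 in the fit over all 13 groups and 1 with slide. Differences among Texel stages went from 10 to 17 in the fit over 13 groups and 1 with slide. For U120 over U85, 0 higher became 2 with no fold threshold, and 3 lower became 5 with the 75th percentile, 7 with no fold threshold and 0 with slide. Breeds at 120 d went from 0 to 2 in the 13-group fit and 3 with slide. The cause was not tested.

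With each array left out in turn, the counts ran from 0 to 3 (T135 higher; 0 without T135 replicate 3), 0 to 5 (T135 lower; 0 without T135 replicate 1, 5 without T135 replicate 2), 6 to 14 (Texel stages; 6 without T85 replicate 1 or T70 replicate 3), 0 to 2 (U120 higher; 2 without U85 replicate 3) and 2 to 4 (U120 lower). They ran from 0 to 0 for breeds at 85 d, 0 to 1 at 100 d (1 without U100 replicate 1) and at 120 d (1 without T120 replicate 1), 0 to 4 for the breed difference in course (4 without T120 replicate 1), and 46 to 57 members selected.

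With the replicate number as a block, 2 members were higher and 3 lower at T135, 9 differed among Texel stages, and the NOD2 (1) difference of -1.06 had an adjusted p of 0.0538 in limma. The other 6 calls for T135 over T70 and U120 over U85 were kept. Numbers do not pair the animals, whose same-numbered correlations ran from -0.31 to 0.1. Of the settings tried on single named features, 146 kept the direction and the call, 29 kept the direction and lost the call, and 0 reversed. Dim signal limits 16 members not above background at U135.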
